A study of Mus musculus with 6 samples.

Results

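Interferon-stimulated genes were followed through mouse TC1 tumors by single-nucleus RNA-seq, in which the unique molecular identifiers (UMIs) of each gene were counted in single nuclei. The list held 40 gene symbols fixed by name, and 38 of them were found among the 22623 genes of the 6 matrices. Mx1 and Mx2 were not analysed here. The 38 are called members. The comparisons ask which of 3 classes of nuclei carried them, how many of them a nucleus carried, and whether tumors of the KO and CO groups differed.

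TC1 cells, a transformed lung epithelial line, were injected under the skin of male mice on a C57BL/6 background, and the tumors grew for 24 days. All mice were MCT2 loxP/loxP and Cre-positive. The Cre was inducible and not limited to a cell type, and the deletion was in the host and not in the injected TC1 cells. CO mice received vehicle and KO mice received tamoxifen for 5 days from 8 weeks of age, and the injection came 2 days later, so the deletion and the tamoxifen itself cannot be told apart. There were 3 libraries in each group, and p-values between groups measure the spread between these libraries.

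Nuclei were put into classes by counts of marker genes that hold no member. Of 18865 barcodes, 17514 were kept, and these gave 7815 tumor, 3570 macrophage and 388 T/NK nuclei, while 5741 (32.8%) met no class rule. In tumor nuclei the library medians ran from 4068 to 7829 UMIs, against 1169 to 1504 in macrophage nuclei and 905 to 1012 in T/NK nuclei. Macrophage and T/NK nuclei therefore held far fewer counts, and the precision of a level in T/NK nuclei was the lowest. Check markers of tumor nuclei that the class rule did not use were present in macrophage nuclei at 6.21% to 6.37% of their tumor level in CO libraries and at 7.10% to 12.0% in KO libraries. In T/NK nuclei the same markers stood at 6.54% to 20.1%. Macrophage check markers stood at 1.17% to 5.54% of their own level in tumor nuclei and at 4.44% to 22.6% in T/NK nuclei. Of 18726 distinct barcodes, 61 occurred in more than a single library. The labels give the tissue as lung, but of 7 lung epithelial genes Sftpc, Sftpa1, Scgb1a1 and Scgb3a2 had 0 UMIs over all nuclei, Sftpb had 9, Foxj1 30 and Ager 145. Slc16a7, which encodes MCT2, was counted 127, 159 and 164 times in CO replicates 1, 2 and 3, and 264, 106 and 352 times in the KO replicates. Its 3′ counts over all nuclei were lowest in KO replicate 2 and highest in KO replicates 1 and 3, so the groups overlapped. Scaled to the UMIs summed in each library, the groups also overlapped over all nuclei, in tumor nuclei and in macrophage nuclei. T/NK nuclei held only 5 of these UMIs. The exons removed are not given in the sources used here, so these counts do not check the labels.

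Cells make interferons when sensors detect foreign or misplaced nucleic acid. The secreted interferon binds receptors on the same and neighbouring cells, whose Jak kinases phosphorylate STAT proteins. Complexes that hold Stat2 and Irf9 then bind a promoter element named the interferon-stimulated response element, built of repeated GAAA units, and many antiviral genes are transcribed together. Macrophages are known for strong responses of this kind, and tumor cells vary in how much of the response they keep.

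The members lay on 15 chromosomes, with 5 each on chromosomes 5 and 11. The IFIT genes sat side by side on chromosome 19, Ifit1 at chr19:34640871-34650009 and Ifit2 at chr19:34550694-34576419 on the plus strand of GRCm38. Ifi204, Ifi206 and Ifi213 sat together on chromosome 1. Oas1a, Oas2 and Oas3 formed a cluster on chromosome 5. By the gene models, 16 members overlapped another gene, and 14 of these overlapped a gene on the opposite strand, such as Parp9 and Dtx3l with each other.

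RefSeq promoter windows, 250 bases before to 50 bases after each start, were matched for 31 members. The core of the response element, written GAAANNGAAA and searched on both strands with overlaps counted, was present in 17 of them (54.8%). Of all 27025 genes with a window, 1079 (3.99%) held it. A match describes letters in a window and is not a binding site. The stretches printed here were chosen because these genes carry the results on class differences. Capitals mark the matched letters, up to 15 flanking bases are given on each side and none past the gene's start, and each stretch is written 5′ to 3′ on the strand of its gene in GRCm38.p6.
Ifit1, chr19:34640770-34640828, plus strand: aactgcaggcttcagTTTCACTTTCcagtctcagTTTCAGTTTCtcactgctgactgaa
Ifit3, chr19:34583358-34583431, plus strand: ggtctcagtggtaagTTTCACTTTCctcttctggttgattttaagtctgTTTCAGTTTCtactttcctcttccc
Isg15, chr4:156200860-156200911, minus strand: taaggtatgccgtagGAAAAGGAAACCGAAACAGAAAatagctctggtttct
Bst2, chr8:71537572-71537617, minus strand: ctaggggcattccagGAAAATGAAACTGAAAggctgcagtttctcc
Oas1a, chr5:120907526-120907560, minus strand: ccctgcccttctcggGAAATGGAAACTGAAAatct
Oas3, chr5:120777710-120777749, minus strand: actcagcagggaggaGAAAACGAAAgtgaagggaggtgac
Ifi206, chr1:173491334-173491373, minus strand: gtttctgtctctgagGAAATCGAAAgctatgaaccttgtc
Ifi213, chr1:173599321-173599360, minus strand: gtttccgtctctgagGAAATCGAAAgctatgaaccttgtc

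Isg15 held 3 overlapping copies of the core, while Ifit1, Ifit3, Bst2 and Oas1a held 2 each. Ifit3b carried the same stretch as Ifit3, and these near-identical genes can share reads, so their separate counts are uncertain. The windows of Ifit2, Oasl1, Oasl2, Herc6, Dtx3l, Rnf213, Irf1, Irf7, Irf9, Cmpk2, Samd9l, Ifi44, Ifi35 and Xaf1 held no exact match. Among the roles, all 4 nucleic acid sensors with a window held the core, against 1 of 4 in the group of Isg15 and the ligases.

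Between classes, nearly every member was higher in macrophage nuclei than in tumor nuclei. A gene was called at an absolute log2 fold change of 0.58 or more with an adjusted p of 0.05 or less, by edgeR's quasi-likelihood test with Benjamini-Hochberg adjustment over all genes tested, with the library as a block. In macrophage nuclei 32 of 38 members were called higher than in tumor nuclei and 0 lower, against a background of 25.4% of all 10318 genes called higher and 26% called lower. The median log2 difference was 1.31 over the members and 0.01 over all genes. In T/NK nuclei 19 members were called higher than in tumor nuclei, where 15.6% of all genes were, and 2 were called lower, where 20.6% of all genes were. Against macrophage nuclei, 16 members were called lower in T/NK nuclei, with 14.7% of all genes, and 0 were called higher, with 7.64% of all genes. All 19 members that T/NK nuclei carried above tumor nuclei were also called higher in macrophage nuclei than in tumor nuclei. At an unadjusted p under 0.05, 0 members were lower in macrophage than in tumor nuclei and 1 was higher in T/NK than in macrophage nuclei. DESeq2, run as an alternative, called 32 members higher and 0 lower in macrophage than in tumor nuclei, and 0 higher in T/NK than in macrophage nuclei.

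**Figure D1:**
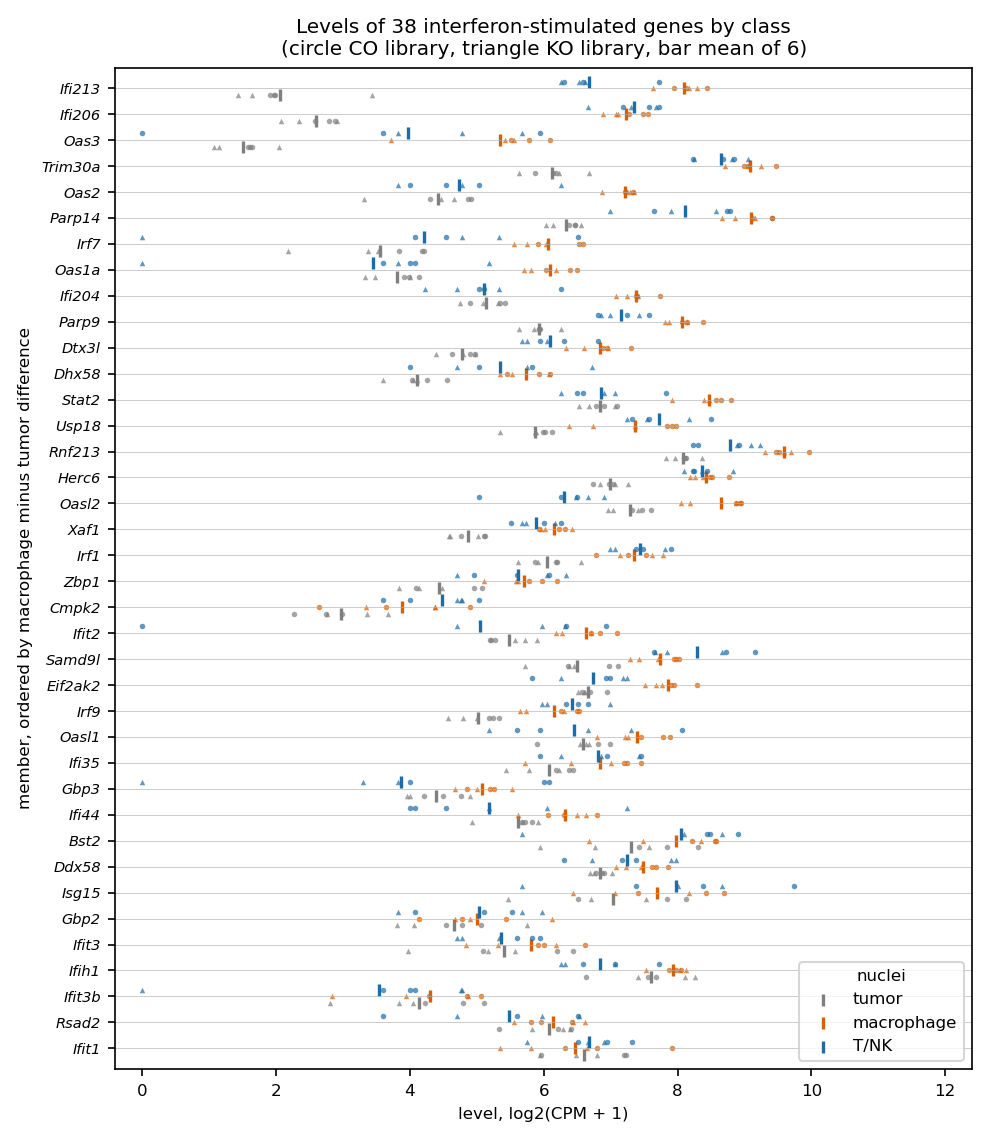
Level of each of the 38 members, as log2(CPM + 1) of the summed UMIs, in tumor (gray), macrophage (orange) and T/NK (blue) nuclei, with 1 point for each of the 6 libraries and a bar at their mean. Members are ordered by the macrophage minus tumor difference, from 6.31 for Ifi213 at the top down to -0.06 for Ifit1 at the bottom.

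Summed over all members, tumor nuclei held 31.1, 30.2 and 23.1 member UMIs per 10000 in CO and 23.5, 21.5 and 28.2 in KO libraries. Macrophage nuclei held 81.8, 78.3 and 80.2 in CO and 66.5, 57.2 and 63.2 in KO. T/NK nuclei held 53.7, 48.3 and 56.3 in CO and 54.6, 41.7 and 47.1 in KO. The order of the classes was the same in each of the 6 libraries, with macrophage nuclei highest and tumor nuclei lowest. The group of the ISG15 system and ADP-ribosyl or ubiquitin ligases made up the largest part in macrophage nuclei, at 24.8 ± 3.73 per 10000 (SD, n = 6). In this group Rnf213 and Parp14 held 3930 and 2980 macrophage UMIs, and Isg15 itself 1337. The IFIT proteins made up only 2.86 ± 1.14.

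A member was read as shared when its log2 difference was under 1 in all 3 class contrasts and each class held at least 10 of its UMIs, and as restricted when a class was called higher than both others by at least 2. By this reading 9 members were shared, 3 were macrophage-restricted, and 0 were restricted to T/NK or tumor nuclei. The remaining 26 were named graded, whether or not they formed a gradient. Ifit3b was among them only because T/NK nuclei held 8 of its UMIs, and its log2 differences were 0.25, -0.27 and -0.52. The shared members were Ifit1, Ifit3, Oasl1, Ddx58, Gbp2, Gbp3, Rsad2, Bst2 and Ifi35. The restricted members were Oas1a, Oas2 and Ifi204, from only 8, 12 and 16 UMIs in T/NK nuclei, as no UMI minimum was set here. They were not absent from tumor nuclei, where their levels were 19.3%, 14.6% and 20.9% of the macrophage levels. Of the shared members, 7 of 9 with a promoter window held the core of the response element, compared with 9 of 21 graded ones. The 9 shared members were not all equal between classes, since 5 of them (Oasl1, Ddx58, Gbp3, Bst2 and Ifi35) still passed the test for a higher level in macrophage nuclei. With any single library left out, 8 to 10 members were shared and 2 or 3 restricted. Without CO replicate 2, Oas1a became graded.

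The IFIT proteins, which bind foreign RNA and block its translation, had 1 of 4 members called higher in macrophage than in tumor nuclei. Ifit1, which recognises RNA caps that lack a methyl mark, stood at 146, 148 and 61.3 UMIs per 1000000 UMIs of the class (CPM) in CO tumor nuclei and at 109.9, 60.5 and 88.3 in KO. In macrophage nuclei it stood at 241, 110.2 and 79.1 in CO and at 98.8, 39.7 and 54.9 in KO. The T/NK values were 159, 122 and 90.5 in CO and 118, 100.5 and 53.0 in KO. The classes overlapped throughout, and the macrophage minus tumor difference was -0.06 ± 0.16 on the log2 scale (SE, adjusted p = 0.757, edgeR). The macrophage mean of Ifit1 was 102% of its tumor mean, against 6.21% to 12.0% for the tumor check markers.
Ifit3, a partner of Ifit1, was at 47.9 ± 26.5 CPM in tumor, 59.6 ± 24.7 in macrophage and 42.4 ± 14.7 in T/NK nuclei (SD, n = 6). Ifit2 was the exception in this group, with 100.9 ± 23.8 CPM in macrophage nuclei against 44.4 ± 9.53 in tumor nuclei, a called difference of 1.23 ± 0.19.

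The OAS group holds the 2-5A synthetases, which answer double-stranded RNA by making the messenger that activates RNase L, and the OAS-like Oasl1. All of the group passed the test for a higher level in macrophage than in tumor nuclei (5 of 5, median 2.41). Oas2 stood at 28.1, 29.1 and 18.6 CPM in CO tumor nuclei and at 8.93, 24.3 and 21.1 in KO. In macrophage nuclei it stood at 161, 148 and 148 in CO and at 116, 156 and 163 in KO, above each tumor value. T/NK nuclei were at 30.7 ± 23.0, close to tumor nuclei, from only 12 UMIs.
The related Oasl2 was 1 of the 2 members called lower in T/NK than in tumor nuclei. Its level was 158 ± 26.9 CPM in tumor, 412 ± 105 in macrophage and 83.8 ± 29.2 in T/NK nuclei. T/NK nuclei were called below tumor nuclei (-1.11 ± 0.27 on the log2 scale, adjusted p = 0.00144, edgeR) and below macrophage nuclei (-2.48 ± 0.25). Oasl1, an OAS-like protein that restrains translation of Irf7, was shared, with 97.9 ± 22.6 CPM in tumor and 173 ± 47.3 in macrophage nuclei. Oas3 was rare in tumor nuclei, with 1.93 ± 0.73 CPM, and had 44.3 ± 18.3 in macrophage nuclei, a difference of 4.53 ± 0.25. In T/NK nuclei it had 26.9 ± 23.8 CPM from 11 UMIs.

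Of the 7 nucleic acid sensors, 6 were called higher in macrophage than in tumor nuclei, with log2 differences over all 7 from 0.30 to 6.31. Ifih1 encodes MDA5, a sensor of long double-stranded RNA. It stood at 188, 203 and 97.9 CPM in CO tumor nuclei and at 168, 275 and 307 in KO, next to 246 ± 34.1 in macrophage nuclei. The macrophage minus tumor difference of 0.30 ± 0.17 did not pass the test, while T/NK nuclei were called below tumor nuclei (-0.90 ± 0.28, adjusted p = 0.0101, edgeR). Ddx58, which encodes the 5′-triphosphate RNA sensor RIG-I, had 113 ± 9.76 CPM in tumor, 181 ± 36.3 in macrophage and 163 ± 70.0 in T/NK nuclei.
Ifi213 and Ifi206 belong to the PYHIN family of DNA-binding proteins. Ifi213 stood at 2.93, 2.97 and 2.75 CPM in CO tumor nuclei and at 1.69, 2.11 and 9.79 in KO. Macrophage nuclei held 278, 245 and 348 in CO and 198, 312 and 286 in KO. T/NK nuclei held 108 ± 51.4. No tumor value reached the lowest value of either immune class, and the macrophage minus tumor difference of 6.31 ± 0.22 was the largest of all members. The tumor level of Ifi213 was 1.34% of its macrophage level, near the bottom of the range of the macrophage check markers in tumor nuclei.
Ifi206 differed from Ifi213 in its immune levels. Macrophage nuclei had 151 ± 27.1 CPM and T/NK nuclei 168 ± 42.0, against 5.18 ± 1.34 in tumor nuclei, and the T/NK minus macrophage difference was -0.01 ± 0.21. Ifi204, another gene of the family, was macrophage-restricted, with 167 ± 26.0 CPM there, 34.7 ± 6.50 in tumor and 37.1 ± 20.2 in T/NK nuclei. Of these neighbouring genes of chromosome 1, Ifi206 and Ifi213 were called above tumor nuclei in both immune classes, and Ifi204 in macrophage nuclei only. The printed stretches of Ifi206 and Ifi213 are almost the same, and no promoter window was matched for Ifi204.

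The ISG15 system adds and removes a ubiquitin-like tag. It was grouped with other ADP-ribosyl or ubiquitin ligases, and all 7 members of this group were called higher in macrophage than in tumor nuclei. Isg15, the tag itself, varied widely between libraries. It stood at 279.7, 229 and 89.9 CPM in CO tumor nuclei and at 184, 43.2 and 103 in KO. Macrophage nuclei held 414, 342 and 168 in CO and 286, 85.5 and 133 in KO, and T/NK nuclei 333, 856 and 166 in CO and 406, 50.2 and 256 in KO. CO replicate 3 and KO replicates 2 and 3 were the 3 lowest libraries in each class. The median mitochondrial share of a nucleus was 1.33%, 3.82% and 0.889% in those libraries and 6.76%, 3.97% and 6.21% in CO replicates 1 and 2 and KO replicate 1, and its part in the result was not tested.
Rnf213, a large ubiquitin ligase and the member with the most UMIs in tumor nuclei, was steadier, with 272 ± 34.8 CPM in tumor, 777 ± 126 in macrophage and 454 ± 122 in T/NK nuclei. Usp18, which removes ISG15 and dampens the type I interferon receptor, had 58.3 ± 9.96 CPM in tumor, 179 ± 72.8 in macrophage and 222 ± 84.4 in T/NK nuclei. The ADP-ribosyltransferase Parp14 reached 558 ± 111 CPM in macrophage nuclei against 80.7 ± 11.4 in tumor nuclei.

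The guanylate-binding proteins, GTPases of cell-autonomous defence, had low levels in each class. Gbp2 had 27.1 ± 14.4 CPM in tumor, 34.5 ± 18.6 in macrophage and 36.6 ± 19.4 in T/NK nuclei, with KO replicate 3 highest in each class. Gbp3 had 20.6 ± 5.97, 33.5 ± 7.30 and 27.9 ± 29.3.
All 4 transcription factors were called higher in macrophage than in tumor nuclei. Stat2, a subunit of the complex that binds the response element, stood at 399.5, 382 and 447 CPM in CO macrophage nuclei and at 334, 241 and 355 in KO, against 115 ± 17.8 in tumor and 123 ± 54.8 in T/NK nuclei. Irf7, which amplifies interferon production, was scarce in tumor nuclei at 11.9 ± 5.29 CPM and had 68.2 ± 20.4 in macrophage nuclei. Irf1, which also responds to interferon gamma, had 67.0 ± 15.8 CPM in tumor, 167 ± 40.5 in macrophage and 177 ± 45.9 in T/NK nuclei.

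Among the other effectors, Bst2, which tethers budding virus to the cell surface, stood at 314, 229.5 and 170.5 CPM in CO tumor nuclei and at 189.9, 60.5 and 107 in KO. Macrophage nuclei held 381, 375 and 297 in CO and 326, 101 and 178 in KO. T/NK nuclei held 318 ± 147. The same 3 libraries as for Isg15 were the lowest in tumor nuclei and in macrophage nuclei. Trim30a, a ubiquitin ligase that restrains inflammatory signalling, had 551 ± 99.9 CPM in macrophage and 408 ± 91.3 in T/NK nuclei against 70.2 ± 17.9 in tumor nuclei. Cmpk2, a mitochondrial nucleotide kinase gene beside Rsad2, was rare, with 7.22 ± 2.86 CPM in tumor nuclei and 15.7 ± 8.62 in macrophage nuclei.

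The rest of the pathway was read from a list of 42 genes other than the members. Of the ligands, Ifng had 24 UMIs and Ifnz 18 over all nuclei, while Ifnb1 had 5. Of the Ifng UMIs, 6 were in T/NK nuclei, 9 in tumor nuclei and 1 in macrophage nuclei. These classes held 388, 7815 and 3570 nuclei, so T/NK nuclei had the most Ifng per nucleus, from very few counts. Ligand messengers were thus near the limit of detection. Irf8, Myd88 and Trex1 were listed at 0 in each library, and nothing was read from them. Of the 26 pathway genes tested between classes, 19 were called higher in macrophage than in tumor nuclei, including 6 of 6 receptors, and 0 lower. Of all genes 25.4% were called higher and 26% lower. Ifngr2, a subunit of the interferon gamma receptor, had 265 ± 52.3 CPM in macrophage nuclei, 43.4 ± 12.1 in tumor and 36.0 ± 26.9 in T/NK nuclei. Its partner Ifngr1 was highest in T/NK nuclei at 302 ± 162, against 161 ± 51.4 in macrophage and 43.8 ± 14.5 in tumor nuclei.
Against tumor nuclei, T/NK nuclei were called higher for 11 of the 26 tested pathway genes, where 15.6% of all genes were. They were called lower for 1, where 20.6% of all genes were. The kinase gene Jak1 had 502 ± 54.6 CPM in T/NK nuclei, 212 ± 21.5 in macrophage and 163 ± 10.8 in tumor nuclei, and Stat3 had 488 ± 133, 298 ± 52.0 and 174 ± 33.8. Among the tested genes of nucleic acid sensing, the macrophage minus tumor log2 difference ran from 0.21 ± 0.15 for Irf3 to 6.32 ± 0.22 for Tlr7, a receptor for single-stranded RNA, which was called. Tbk1, the kinase downstream of nucleic acid sensors, had 95.4 ± 10.7 CPM in tumor and 171 ± 18.0 in macrophage nuclei. Its target Irf3 had 49.0 ± 22.4 and 54.1 ± 30.2, the repressor Irf2 285 ± 51.8 and 418 ± 76.2, and Nlrc5, the activator of MHC class I genes, 254 ± 45.7 and 326 ± 48.1.

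The share of nuclei that carried 3 or more members was compared after each nucleus was thinned to 1000 UMIs, since the share rises with depth. Nuclei with fewer UMIs were left out, from 22 to 267 tumor, 55 to 274 macrophage and 14 to 57 T/NK nuclei in a library. CO libraries had 40.5%, 40.1% and 27.3% of tumor nuclei with 3 or more members, and KO libraries 30.6%, 27.1% and 37.9%. For macrophage nuclei the CO libraries gave 84.8%, 81.5% and 85.0%, and the KO libraries 79.6%, 66.7% and 79.1%. For T/NK nuclei the CO libraries gave 65.4%, 55.9% and 75.0%, and the KO libraries 73.3%, 53.3% and 74.4%. These shares put the classes in the same order as the summed levels in each library.
Macrophage nuclei exceeded tumor nuclei by 45.5 ± 6.84 percentage points (SD, n = 6, 6 of 6 libraries), T/NK nuclei exceeded tumor nuclei by 32.3 ± 12.1 (6 of 6), and T/NK nuclei lay below macrophage nuclei by 13.2 ± 8.07 (6 of 6). An exact two-sided sign-flip permutation test over the 6 libraries gave p = 0.03125 for each of these 3 differences, the smallest it allows, and also 0.03125 after adjustment over the 3. Without thinning, tumor nuclei reached 94.2%, 93.6% and 83.0% in CO and 85.4%, 89.3% and 78.1% in KO, and macrophage nuclei 87.1%, 87.4% and 88.9% in CO and 83.4%, 75.7% and 87.3% in KO. The unthinned shares, taken at unequal depths, had tumor above macrophage nuclei in 4 of 6 libraries.

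**Figure D2:**
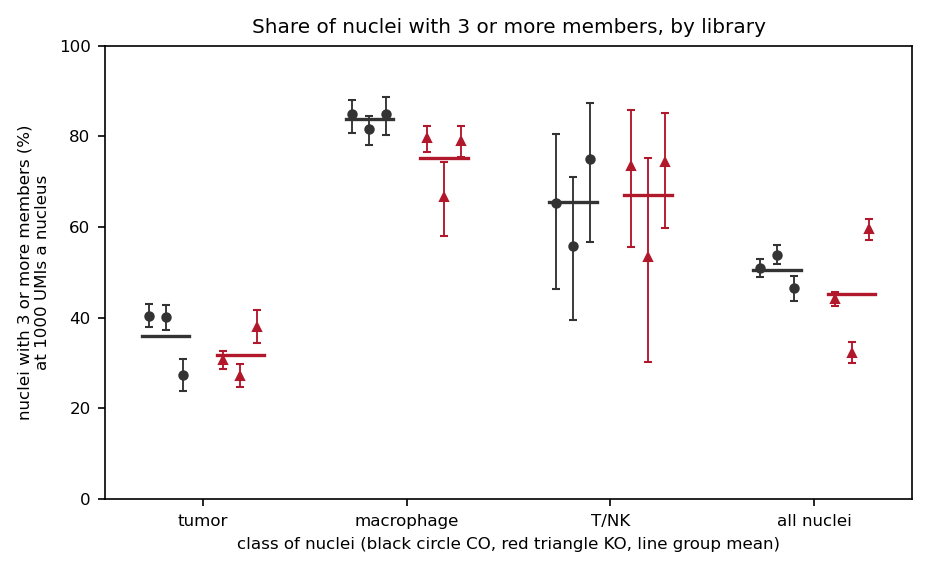
Share of nuclei with 3 or more members at 1000 UMIs a nucleus, for tumor, macrophage, T/NK and all nuclei, with 1 point for each CO (black circles) and KO (red triangles) library, 95% Wilson intervals as error bars and a line at the group mean. Macrophage points lie between 66.7% and 85.0%, above all tumor points, which lie between 27.1% and 40.5%.

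Over libraries, the KO minus CO difference in this share was -8.67 percentage points in macrophage nuclei (83.8 ± 1.94% in CO, 75.1 ± 7.31% in KO, SD, n = 3 each), and all 3 KO libraries lay below all 3 CO libraries. The exact two-sided permutation test gave p = 0.1, the smallest that 3 against 3 allows, so this design cannot pass 0.05. The groups overlapped with the stricter gate, where KO replicate 3 (82.6%) lay above CO replicate 2 (80.2%), and without thinning, where it (87.3%) lay above CO replicate 1 (87.1%). With each library left out in turn the difference ran from -10.9 to -4.45 points, the latter without KO replicate 2. In tumor nuclei the groups overlapped, with a difference of -4.06 points (exact permutation p = 0.5), which ran from -8.40 without CO replicate 3 to -1.67 without KO replicate 2 and was -0.50 among nuclei with at least 500 genes and under 5% mitochondrial UMIs. T/NK nuclei differed by 1.61 points (exact permutation p = 1) and all nuclei by -5.20 points (exact permutation p = 0.6). Adjusted over these 4 tests the smallest p was 0.4. Over all nuclei the shares were 51.0%, 53.9% and 46.5% in CO and 44.1%, 32.3% and 59.5% in KO. The mix of classes differed as well, with 181 macrophage beside 1234 tumor nuclei in KO replicate 2 and 679 beside 934 in KO replicate 3, and its part in the result was not tested. At 500 UMIs, where every kept nucleus was used, the difference was -10.1 points in T/NK nuclei (exact permutation p = 0.1). The T/NK shares there were 36.5% to 47.5% in CO and 24.1% to 35.0% in KO libraries, without overlap. Macrophage nuclei also differed by -10.1 points at 500 UMIs (exact permutation p = 0.1), so the lower share in KO was not particular to them. The intervals drawn cover counting error only.

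How many members a nucleus carried also differed within each class. Tumor nuclei with 0 members made up 12.0% to 21.4% of a library and those with 10 or more 1.13% to 2.51%, and the single highest tumor nucleus had 26. In macrophage nuclei 0.733% to 3.97% had 0 members and 7.47% to 18.7% had 10 or more. Member UMIs were more spread over nuclei than counting alone gives, with a variance 3.03 to 4.80 times the mean in tumor nuclei and 3.03 to 6.35 times in macrophage nuclei.

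**Figure D3:**
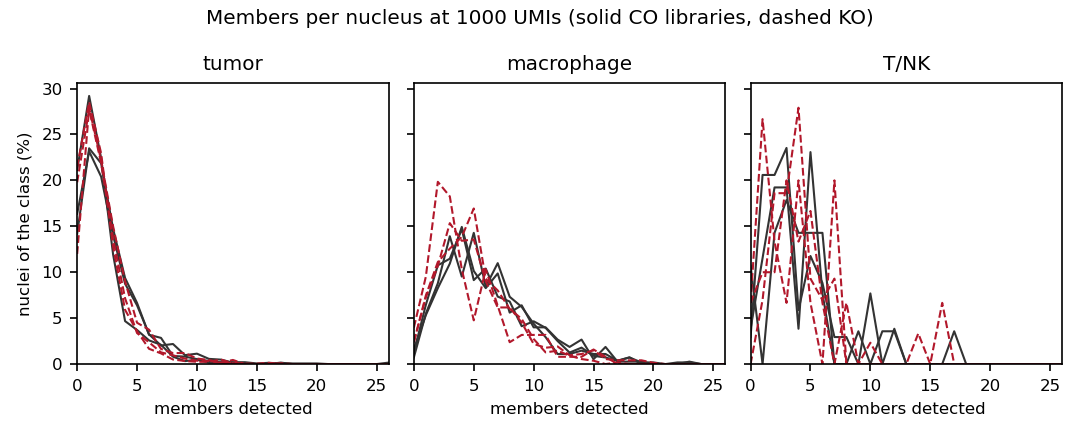
Percent of nuclei (vertical axis) by the number of members detected at 1000 UMIs (horizontal axis), in tumor, macrophage and T/NK nuclei, with solid black lines for CO and dashed red lines for KO libraries. Tumor lines peak at 1 member in each library, while macrophage lines are broad, and T/NK lines are jagged because they rest on 15 to 43 nuclei each.

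Some members marked tumor nuclei that held many others. For each gene, the share of nuclei with 3 or more other members was taken among nuclei with and without that gene, at 1000 UMIs, and averaged over libraries with at least 5 such nuclei. This is a description of nuclei within libraries and carries no test. Members were chosen with earlier results of these data known. In the study, Ifit3b, Ifit3, Rsad2, Ifit1 and Oasl1 led a cluster of these nuclei named interferon-responsive. The shares below are therefore not independent of that cluster. With Ifit3b the share was 83.9% and without it 32.9%, although reads shared with Ifit3 may add to this. With Ifit3 it was 71.9% against 31.9%, with Rsad2 69.6% against 31.4%, and with Ifit1 67.8% against 29.9%. Oasl1 (67.5% against 30.1%) and Oasl2 (60.6% against 26.9%) were alike, and for each of these genes the share was higher with the gene in 6 of 6 libraries. These are antiviral effectors, and Rsad2 encodes viperin, which makes a chain-terminating nucleotide.
Of the 35 members with enough tumor nuclei in all 6 libraries, 30 had the higher share with the gene in 6 of 6 libraries, and of 23 such pathway genes 5 did. Other members separated tumor nuclei less. The share was 36.8% with Bst2 and 29.1% without, 40.7% against 29.0% for Isg15, and 40.1% against 32.8% for Ifit2. Ifit2 was thus apart from its neighbours Ifit1 and Ifit3 here too. Of the pathway genes, Samhd1, a nucleotide-cleaving restriction factor, had 44.6% against 32.1%. Irf2 (34.5% against 33.8%), Tbk1 (34.1% against 33.9%) and Jak2 (32.4% against 34.1%) had nearly equal shares with and without the gene.
In macrophage nuclei the median difference between shares with and without the gene was 12.1 percentage points over 29 members, against 19.6 over 35 members in tumor nuclei. With Parp14 87.8% had 3 or more others and without it 70.0%, with Herc6 90.4% against 73.8%, with Ifit2 94.7% against 77.9%, and with Isg15 72.2% against 77.5%.

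**Figure D4:**
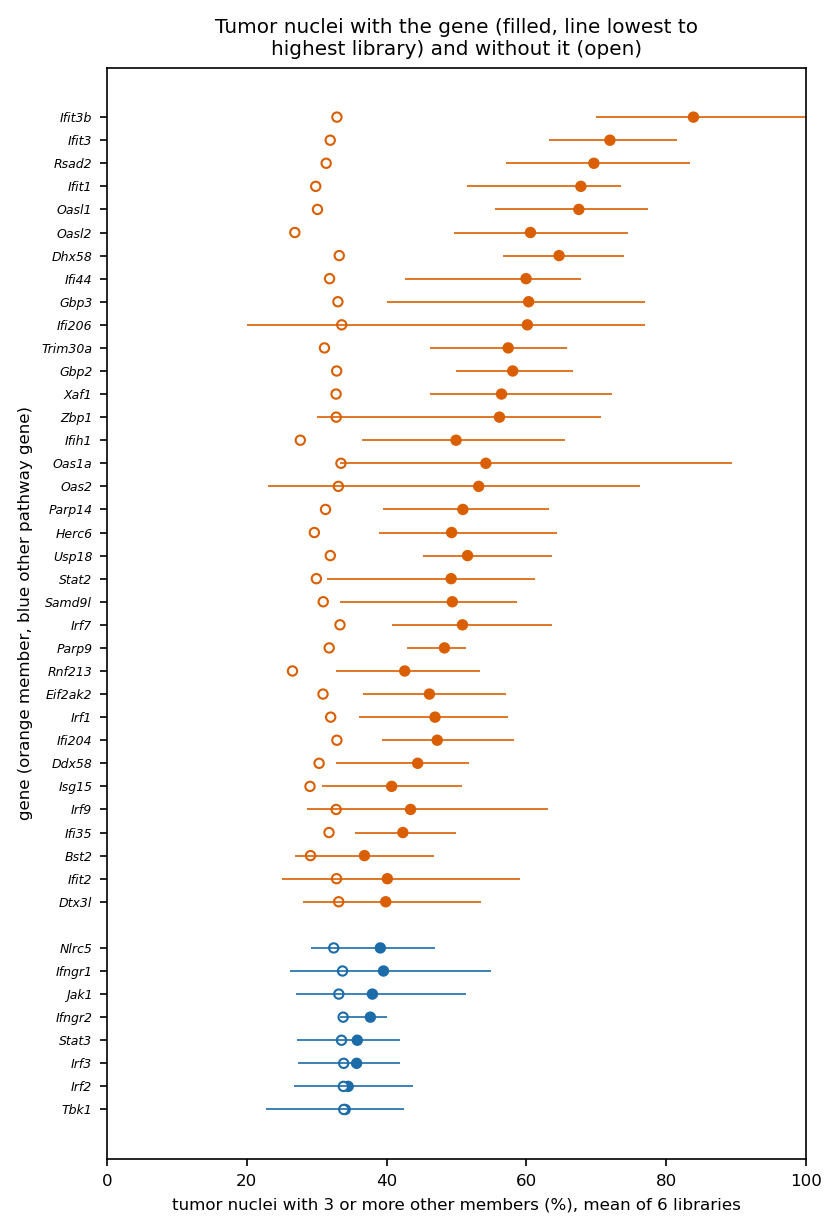
Percent of tumor nuclei with 3 or more other members among nuclei with the gene (filled points, line from the lowest to the highest library) and without it (open points), as the mean of 6 libraries, for members (orange) and the pathway genes with the most UMIs of each part of the pathway list (blue). Ifit3b, Ifit3, Rsad2 and Ifit1 lie farthest from their open points, while Irf2 and Tbk1 lie on theirs.

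Between KO and CO, 0 members passed the test in any class. edgeR's quasi-likelihood test called 0 of 38 members in tumor nuclei, 0 of 38 in macrophage nuclei, 0 of 12 tested in T/NK nuclei and 0 of 38 over all nuclei, and the background was 0% of all genes in each of these 4 fits. At an unadjusted p under 0.05 there were 5 members in tumor, 6 in macrophage, 0 in T/NK and 4 in all nuclei, beside 6.86%, 4.96%, 6.19% and 4.84% of all genes tested. DESeq2 also called 0 members in each. Biological variation between libraries was 27.3% in tumor and 25.8% in macrophage nuclei. The test of the KO effect in macrophage minus that in tumor nuclei called 0 members and 0.00826% of all genes, with 9 of 38 members and 7.05% of all genes at an unadjusted p under 0.05. With no low-count filter it called 3 members and 0.568% of all genes. DESeq2 called 0 of 26 members there and gave no adjusted p for the other 12.

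The signs of the members in macrophage nuclei leaned to lower values in KO. Of 38, 32 had a negative log2 fold change with a median of -0.39, while 50.3% of all genes were negative with a median of 0.00. The summed level was 80.1 ± 1.75 per 10000 UMIs in CO and 62.3 ± 4.76 in KO. With a single library left out, the number of negative members ran from 29 to 34. For 12 of 38 members (31.6%) all 3 KO libraries lay below all 3 CO libraries, against a background of 5.64% of all 9341 genes: Ddx58, Eif2ak2, Herc6, Ifi206, Ifi35, Ifit2, Oasl1, Oasl2, Samd9l, Stat2, Usp18 and Zbp1. With each library left out in turn, 12 to 23 members did so and 7.72% to 26.8% of all genes. Members respond together, so they are not independent observations. Tumor check markers in macrophage nuclei summed to 340.2 to 547 CPM in CO and 356 to 1228 in KO, with 11 of 11 above 0, and their part in the result was not tested.

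Usp18 was the member with the lowest unadjusted p in macrophage nuclei. It stood at 252, 241 and 227 CPM in CO macrophage nuclei and at 163, 82.5 and 105 in KO. The groups did not overlap, and the log2 fold change was -0.99 ± 0.25 (adjusted p = 0.865, edgeR). In tumor nuclei it was at 68.5, 62.5 and 63.7 in CO and at 57.2, 39.7 and 58.1 in KO, again without overlap (-0.27 ± 0.17). Oasl2 stood at 493, 485 and 469.7 CPM in CO macrophage nuclei and at 468, 290.3 and 265 in KO, where KO replicate 1 was next to the CO values. Ifit1 had the largest negative value in macrophage nuclei, -1.08 ± 0.43, but its groups overlapped, and the value ran from -1.51 without KO replicate 1 to -0.50 without CO replicate 1. Gbp2 (0.62 ± 0.47) and Irf1 (0.35 ± 0.25) had the largest positive values there. Neither passed the test, and Gbp2 turned to -0.0365 without KO replicate 3.

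In tumor nuclei 25 of 38 members were negative, with a median of -0.12, and 52.3% of all genes negative. All 3 KO libraries lay below all 3 CO libraries for Ifit3b, Irf7, Irf9 and Usp18, 4 of 38 members, where 7.95% of all 12738 genes did so. This count rose to 17 without CO replicate 3, beside 18.9% of all genes, and to 17 without KO replicate 3, beside 10.9%, and lay between 4 and 6 without each of the others. Irf7 stood at 17.5, 17.2 and 13.3 CPM in CO and at 10.4, 3.54 and 9.37 in KO (-1.004 ± 0.37). Ifit3b stood at 26.8, 33.4 and 17.8 in CO and at 15.5, 6.03 and 13.3 in KO (-1.12 ± 0.37). Both had KO replicate 2 lowest. Cmpk2 (0.75 ± 0.35) and Ifih1 (0.69 ± 0.35) had the largest positive values, and for each the CO and KO libraries overlapped.

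Ifit2 had KO minus CO differences of opposite sign in the 2 classes, neither past the test. In tumor nuclei it stood at 35.6, 36.3 and 37.6 CPM in CO and at 46.5, 58.8 and 51.7 in KO, with all KO libraries higher (0.60 ± 0.17). In macrophage nuclei it stood at 136, 114 and 104 in CO and at 103, 76.4 and 72.0 in KO, with all KO libraries lower (-0.47 ± 0.23). The difference between the classes was -1.09 ± 0.26 with an adjusted p of 0.375 in edgeR, so it did not pass the test over all genes.

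**Figure D5:**
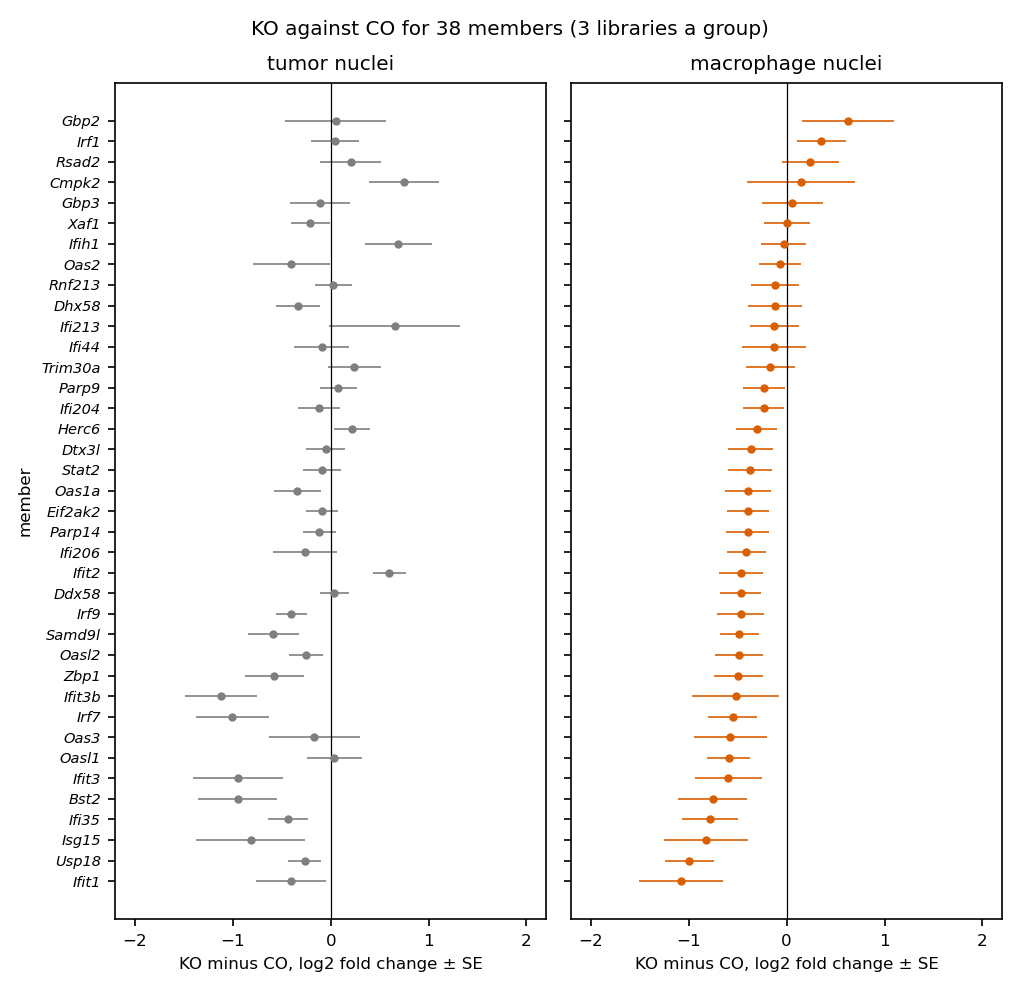
KO minus CO log2 fold change of each of the 38 members with its standard error, in tumor (gray) and macrophage (orange) nuclei, 3 libraries a group, members ordered by the macrophage value. In macrophage nuclei 32 of the points lie left of 0 and in tumor nuclei 25, and none passed the test.

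KO replicate 1 decided whether members passed. This library stood nearer to the CO libraries than the other 2 KO libraries for Isg15, Bst2 and Oasl2. In deviations from the group means, it correlated at 0.62 and 0.44 with CO replicates 1 and 2, and at -0.65 with CO replicate 3. CO replicate 3 correlated at 0.47 and 0.40 with KO replicates 2 and 3, and was low with them for Isg15 and Bst2. The part of this split of the libraries in the calls was not tested. Without KO replicate 1, 9 members were called lower in KO macrophage nuclei (Bst2, Ifi35, Ifit1, Ifit3, Irf9, Isg15, Oasl2, Samd9l and Usp18). Of all genes 9.01% were called lower too. In tumor nuclei 4 were then called lower (Bst2, Ifi35, Ifit3b and Irf7), where 14.5% of all genes were, and 2 higher (Cmpk2 and Ifit2), where 7.12% of all genes were. The KO effect was then called lower in macrophage than in tumor nuclei for Usp18 and Ifit2, with 0.147% of all genes. On these 2 KO libraries, the share of members called in tumor nuclei lay below the background in either direction. In macrophage nuclei the share called lower in KO lay above the background. There 0 members were called higher in KO, beside 511 of 9178 genes. Of the pathway genes 0 were called between KO and CO in any class with all libraries. Without KO replicate 1, 5 were called lower (Irf3, Ifngr1, Socs3, Socs1 and Tmem173) and 1 higher (Adar) in KO tumor nuclei, and 3 lower (Irf3, Ifngr1 and Ifnar2) and 1 higher (Jak2) in KO macrophage nuclei.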

How the data were processed

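Single nuclei of 6 tumors were sequenced with a 10x Genomics 3′ kit. The authors deposited raw UMI counts per gene and nucleus for each library, made with Cell Ranger (3.0.2 in the submitters' notes) on GRCm38, with totals of 13252572 to 22057084 UMIs a library. Nuclei with 100 to 7500 genes and under 20% mitochondrial UMIs were kept, and the highest Scrublet scores were removed, 0.8% per 1000 barcodes. Tumor, macrophage and T/NK classes required at least 2 distinct markers of their own (5 marker UMIs for tumor, 3 for the others) and few of another class, and no member was a marker. UMIs were summed per library and class and tested with edgeR 4.0.16 (TMM, filterByExpr, quasi-likelihood test), with DESeq2 1.42.0 as an alternative. CPM are UMIs per 1000000 UMIs of the class sum. Shares were taken after drawing 1000 UMIs from each nucleus without replacement, and their intervals are 95% Wilson intervals of counting error only. The fits and the thinning were tested on simulated data. For the KO fits, simulated libraries varied less than the real ones (27.3% in tumor and 25.8% in macrophage nuclei). The simulation therefore does not show what those fits could detect.

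The members described are the 2 of each role with the most UMIs, the 3 with the largest absolute fold change of each class contrast, the 2 largest rises and 2 largest falls of KO over CO in tumor and in macrophage nuclei, and the 2 genes with the most UMIs of each pathway part. Ifit2, Parp14, Herc6, Rsad2, Samhd1, Jak2, Ifnb1, Tlr7 and the pathway genes called without KO replicate 1 were named after their values were seen. The result of 1 gene on the pathway list is not reported here. Members, pathway genes and markers were chosen with earlier results of these data known, and several markers led clusters in the study. Replicate numbers were not used to pair the libraries in the main tests. Same-numbered libraries correlated at 0.62, -0.38 and 0.40 in their deviations from the group means. Differently numbered libraries of the 2 groups correlated at -0.65 to 0.47, so these values do not settle whether libraries were paired.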

Additional observations from a re-analysis of the deposited data

How the results depend on the processing

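With each library left out in turn, the number of members called between KO and CO ran from 0 to 6 in tumor and from 0 to 9 in macrophage nuclei, and from 0 to 2 for the difference between these classes, and each upper end came without KO replicate 1. With no low-count filter that difference was called for 3 members and 0.568% of all genes. The KO minus CO difference in the share of nuclei with 3 or more members ran from -12.3 to 1.28 percentage points over all nuclei (higher in KO without KO replicate 2), and from -3.16 to 8.45 in T/NK nuclei. In T/NK nuclei the difference of 1.61 points turned to -8.94 without thinning, -10.1 at 500 UMIs, -2.45 for 2 or more members, -5.69 for 5 or more, and -1.39 with at least 500 genes and under 5% mitochondrial UMIs, and a library held 15 to 43 such nuclei after thinning. Gbp2 in macrophage nuclei ran from -0.0365 (without KO replicate 3) to 1.01. The cause was not tested for these. Fitting the replicate number as a block called 0 members between KO and CO in tumor, macrophage, T/NK and all nuclei, and the share differences paired by number kept their values, with exact permutation p = 0.25 in macrophage and 0.75 in tumor nuclei. With a library left out, the number of members called in class contrasts ran from 30 to 33 between macrophage and tumor, 16 to 22 between T/NK and tumor, and 13 to 17 between T/NK and macrophage nuclei. The low-count filter left 12 members for the KO test in T/NK nuclei.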

Other observations

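The 5741 nuclei that met no class rule held 41.4, 43.3 and 35.2 member UMIs per 10000 in CO replicates 1 to 3, and the KO replicates held 33.8, 28.3 and 43.0. In each of the 6 libraries this lay above the level of tumor nuclei and below that of T/NK nuclei.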
